A study of Homo sapiens with 4 samples.

Results

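The genes described here are NSUN2 and 6 other genes for enzymes that place 5-methylcytosine (m5C) on RNA: NOP2, NSUN3, NSUN4, NSUN5, NSUN6 and TRDMT1. They were chosen by gene symbol, current or older, without use of measured values. All 7 were found among the 62893 genes of the count table, and all 7 passed the filter on low counts, which kept 16889 genes. Poly(A) RNA was sequenced from T24 cells, an established human bladder carcinoma line. The 4 libraries were 2 of cells given control siRNA (siControl) and 2 of cells given siRNA against NSUN2 (siNSUN2), with no other genotype, agent, dose or time named in the labels. The labels do not state the siRNA sequences or how many were used, and only 1 line was studied, so that effects of the siRNA on other transcripts and effects of losing NSUN2 cannot be told apart.

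Methylation of the fifth carbon of cytosine in RNA is carried out by enzymes that take the methyl group from S-adenosylmethionine. Proteins of the NOL1/NOP2/SUN family share a catalytic core and divide the substrates among themselves. NSUN2 acts on many cytosolic tRNAs and also on vault RNAs and some mRNAs, and is studied in bladder cancer for its action on mRNA. NSUN6 acts on a few tRNAs and on mRNAs, NOP2 and NSUN5 on cytosolic 28S ribosomal RNA, NSUN3 on the mitochondrial methionine tRNA, and NSUN4 on the 12S ribosomal RNA of mitochondria. TRDMT1, also called DNMT2, is built like a DNA methyltransferase but methylates tRNA. The comparison asks what happens to the transcripts of this group when NSUN2 is knocked down; RNA methylation itself was not measured.

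The smallest library held 33633249 counts and the largest 215936965, a ratio of 6.42. Levels are given as CPM, counts scaled to a common library size with TMM factors (the usual CPM unit), which correct for RNA composition. Nothing in the labels says that the replicates were separate cultures, and the spread behind each p-value is that of these libraries alone and may be technical. T24 cells in both groups had the keratin mRNAs KRT7, KRT8 and KRT18 and the mesenchymal-type genes VIM, CDH2, ZEB1 and FN1. Of 17 urothelial markers 8 passed the filter, and the 17 summed to 1207 and 1279 CPM in siControl and 1231 and 1140 CPM in siNSUN2, most of it KRT8 and KRT18. Of these 8, the uroplakin gene UPK1B was lower (log2 fold change −1.13), PPARG (0.72) and KRT7 (0.29) were higher, and 5 were not called. The 4 mesenchymal-type genes summed to 1537 and 1565 CPM in siControl and 2534 and 2522 CPM in siNSUN2, with VIM, CDH2 and FN1 called higher. These calls stand beside 27.1% higher and 25.5% lower of all genes tested, and 33.6% and 30.7% of coding genes tested. Whether the changes of these marker genes have a part in those of the members was not tested. UPK3A, the gene of a protein of the bladder's umbrella cells, was at 0 counts in every library, and the epithelial genes CDH1, EPCAM, KRT5 and KRT19 were each under 0.1 CPM. Of 12 markers of blood, endothelium, liver, neurons and muscle, the endothelial gene PECAM1 was at 0 counts in every library. The summed level of these 12 markers was 1.77 and 1.60 CPM in the siControl libraries, 3.80 CPM in siNSUN2 replicate 1 and 15.4 CPM in siNSUN2 replicate 2, and none of the 4 that passed the filter was called by edgeR. Of them VWF was at 0.165 and 0.113 CPM in siControl and at 1.80 and 8.73 CPM in siNSUN2, and CDH5 at 0.471 and 0.282 CPM against 0.577 and 1.87 CPM, so that both were higher in each siNSUN2 library and highest in replicate 2. Without siNSUN2 replicate 2, log2 fold changes were −3.25 for NSUN2, −0.78 for NSUN4 and 0.77 for NSUN5, about as large as with it. In that run NOP2 was at −0.27, NSUN3 at −0.39, NSUN6 at −0.44 and TRDMT1 at −0.26. Because VWF and CDH5 were higher in siNSUN2 replicate 1 too, the run cannot show whether their rise bears on the members.

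A 6-base word, ACCCTA, is shown first, because transcripts that hold it were lower in siNSUN2 libraries in an earlier analysis of these same data. It was searched on the sense strand in the principal GENCODE transcript of each member. NSUN2 holds it in its coding sequence, from base 971, in the 7-base form AACCCTA. NOP2 holds the 6-base form from base 17 of its coding sequence and TRDMT1 in its 3′ UTR, and the principal transcripts of NSUN3, NSUN4, NSUN5 and NSUN6 did not contain it. The 3 sites are given with 12 bases on each side, the word in capitals.
NSUN2 site: cgtgttcactaaACCCTAttgaggatgaag
NOP2 site: ggcgcaagttggACCCTAcgaaggagaagc
TRDMT1 site: caacatagaattACCCTAtgattcagcgat

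Among 19179 coding genes of the table with a principal transcript, 17.6% hold ACCCTA in the coding sequence, 6.2% hold AACCCTA there, and 16.5% hold ACCCTA in the 3′ UTR. The 865 genes tested with AACCCTA in the coding sequence, NSUN2 among them, had a median log2 fold change of −0.32, and 59.0% of them were called lower. The 2377 genes with ACCCTA in the coding sequence had a median of −0.16 with 45.5% called lower. They include the 865 genes with AACCCTA, whereas NOP2 holds ACCCTA without AACCCTA. The share for coding sequences like that of NOP2 was not taken separately. The 2289 genes with ACCCTA in the 3′ UTR had a median of −0.17 with 45.6% called lower. That group was not split by AACCCTA either, which the TRDMT1 site lacks. Genes with the word in both regions count in both the coding sequence group and the 3′ UTR group. The 8406 genes with ACCCTA in neither region had a median of 0.12, and 24.1% of them were called lower. All 12581 coding genes tested had a median of 0.03, with 30.7% called lower. These are descriptions of groups that were not matched for GC content or length. The word was noticed in these data, and whether it has a part in the change of any member was not tested.

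NSUN5 has 2 pseudogene copies, NSUN5P1 and NSUN5P2, whose counts bear on its own. Their transcripts aligned to the NSUN5 coding sequence at 96.3% and 96.4% identity. Bases 1227 to 1286 of that coding sequence are shown with the aligned bases of each copy. This run of 60 bases without gaps was chosen because it has the most differences between NSUN5 and its copies. It shows where reads of NSUN5 can be told from those of the copies, which differ from each other here only at the last base. Capitals mark every position at which either copy differs from NSUN5, and in each copy its own 8 differences.
NSUN5: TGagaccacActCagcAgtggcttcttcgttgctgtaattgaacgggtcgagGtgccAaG
NSUN5P1: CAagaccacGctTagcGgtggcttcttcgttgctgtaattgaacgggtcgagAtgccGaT
NSUN5P2: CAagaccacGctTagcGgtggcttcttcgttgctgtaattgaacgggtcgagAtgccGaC

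Of 1514 windows of 150 bases, the read length, in the principal NSUN5 transcript, 31 (2.0%) occur unchanged in a transcript of another gene of the table, NSUN5P2. No such window was found for the other 6 members.

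Of the 7 genes, 5 fell (NSUN2, NSUN4, NSUN6, NSUN3 and NOP2), 1 rose (NSUN5) and 1, TRDMT1, did not pass the test. Calls are at an adjusted p under 0.05 in edgeR's quasi-likelihood test. The background was high: 52.6% of all genes tested were called, 27.1% higher and 25.5% lower, so that the count of called members is read against it and is not by itself a result about this family. Of the 12581 coding genes tested, 33.6% were called higher and 30.7% lower, and all 7 members are coding genes. The median log2 fold change (siNSUN2 over siControl) was −0.41 over the members and 0.03 over all genes tested. The 5 falls and the median of the members include NSUN2, the gene that the siRNA targets. Only NSUN2 changed by 2-fold or more.

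**Figure D1:**
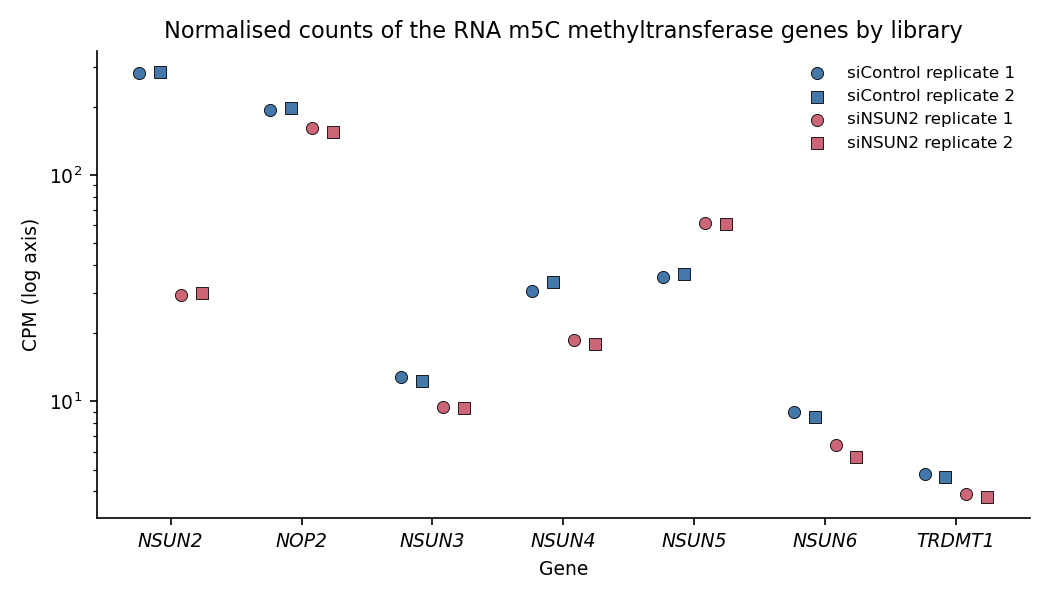
Level of each gene (CPM, log axis) in each library, 1 point per library, blue for siControl and red for siNSUN2, circles for replicate 1 and squares for replicate 2. The red points of NSUN2 lie near 30 CPM against about 283 CPM for the blue ones, those of NSUN5 lie above the blue ones, and those of the other 5 genes lie below.

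NSUN2 (ENSG00000037474, chromosome 5), the gene targeted, was at 281 and 284 CPM in siControl replicates 1 and 2 and at 29.6 and 30.1 CPM in siNSUN2 replicates 1 and 2. The siNSUN2 libraries kept 10.5% and 10.7% of the siControl mean, and replicates within a group were nearly equal, so the labels match the targeted transcript. In bulk RNA, fewer cells with the transcript and less of it per cell cannot be told apart. These values rest on 11930 and 60478 counts in siControl and 2718 and 1031 in siNSUN2. The log2 fold change was −3.24 (SE 0.0429, 95% interval −3.34 to −3.15; edgeR adjusted p = 1.64e-09). Of all 16889 genes tested, NSUN2 had the smallest p, and 19 genes, itself included, fell at least as far by fitted fold change.

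NOP2 (ENSG00000111641, chromosome 12) encodes a nucleolar enzyme of 28S rRNA that is needed for assembly of the large ribosomal subunit. It was at 193 and 198 CPM in siControl and at 161 and 155 CPM in siNSUN2. Both siNSUN2 libraries lay below both controls. The log2 fold change was −0.31 (SE 0.0409, 95% interval −0.40 to −0.22; edgeR adjusted p = 1.68e-04), a level of 80.7% of siControl. NOP2 is the 1 called member that did not pass a test against a fold of 1.2 (edgeR's glmTreat, adjusted p = 0.123), so that its change was small, though larger than the spread between replicates.

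NSUN5 (ENSG00000130305, chromosome 7) modifies another cytosine of 28S rRNA and lies in the region deleted in Williams-Beuren syndrome. It was at 35.5 and 36.6 CPM in siControl and at 61.0 and 60.5 CPM in siNSUN2. The groups did not overlap, and the gap between them was far wider than that between replicates. NSUN5 rose by 0.75 on the log2 scale (SE 0.0444, 95% interval 0.65 to 0.85; edgeR adjusted p = 1.05e-06), or 1.69-fold. Its pseudogene NSUN5P2 went from 5.98 and 7.35 CPM to 8.06 and 10.1 CPM (log2 fold change 0.43, SE 0.149, edgeR adjusted p = 0.0422). NSUN5P1 was at 8.50 and 11.0 CPM in siControl and at 12.3 and 13.9 CPM in siNSUN2, and narrowly missed the threshold (log2 fold change 0.41, SE 0.142, edgeR adjusted p = 0.0545). With the counts of all 3 summed, the log2 fold change was 0.66 (edgeR adjusted p = 8.42e-06), so the sum of the 3 rose as well.

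The 2 genes for mitochondrial RNA both fell, NSUN3 only without a correction for GC content and length. NSUN4 (ENSG00000117481, chromosome 1), which works with the factor MTERF4 in assembly of the mitochondrial ribosome, was at 30.6 and 33.8 CPM in siControl and at 18.6 and 17.9 CPM in siNSUN2. All siNSUN2 values lay below all siControl values, and after NSUN2 this was the largest fall among the members. Its log2 fold change was −0.82 (SE 0.0673, 95% interval −0.97 to −0.67; edgeR adjusted p = 7.60e-06), which left 56.7% of the siControl level.

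NSUN3 (ENSG00000178694, chromosome 3), whose mark on the mitochondrial methionine tRNA is oxidised further by ALKBH1, was at 12.8 and 12.3 CPM in siControl and at 9.49 and 9.38 CPM in siNSUN2. The groups did not overlap. The log2 fold change was −0.41 (SE 0.0801, 95% interval −0.59 to −0.23; edgeR adjusted p = 0.00196). After correction of the libraries for GC content and length it was not called (−0.18, edgeR adjusted p = 0.10). Exons of NSUN3 overlap on the opposite strand with those of DHFR2, a dihydrofolate reductase gene, at 12.3 and 13.1 CPM in siControl and 10.2 and 10.8 CPM in siNSUN2 (log2 fold change −0.28). Whether the counting used strand is not stated, so reads of this pair may have been assigned to either gene or dropped.

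The remaining members act on tRNA. NSUN6 (ENSG00000241058, chromosome 10) was at 9.01 and 8.49 CPM in siControl and at 6.40 and 5.70 CPM in siNSUN2, without overlap. Its log2 fold change was −0.53 (SE 0.11, 95% interval −0.78 to −0.28; edgeR adjusted p = 0.00289), a call that was lost after correction for GC content and length. Exons of NSUN6 overlap on the same strand with those of AL450384.2. That gene was at 2.09 and 1.51 CPM in siControl and 1.23 and 1.37 CPM in siNSUN2, and was not called. Reads of the shared part may have been assigned to either gene or dropped. TRDMT1 (ENSG00000107614, chromosome 10) had the lowest level of the 7, at 4.78 and 4.64 CPM in siControl and 3.91 and 3.80 CPM in siNSUN2. The siNSUN2 values were again the lower ones, but the log2 fold change of −0.29 (SE 0.137) did not pass (edgeR adjusted p = 0.11), and its 95% interval, −0.60 to 0.02, covers a fall of about the size seen for NSUN3 as well as no change. TRDMT1 had as few as 130 counts in a library, where counting error alone is 8.77%, against 1.37% for NOP2 with at least 5301.

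NSUN7, the family member left out of the 7, had 2 counts in siNSUN2 replicate 2 and 0 in the other libraries, and was not tested.

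**Figure D2:**
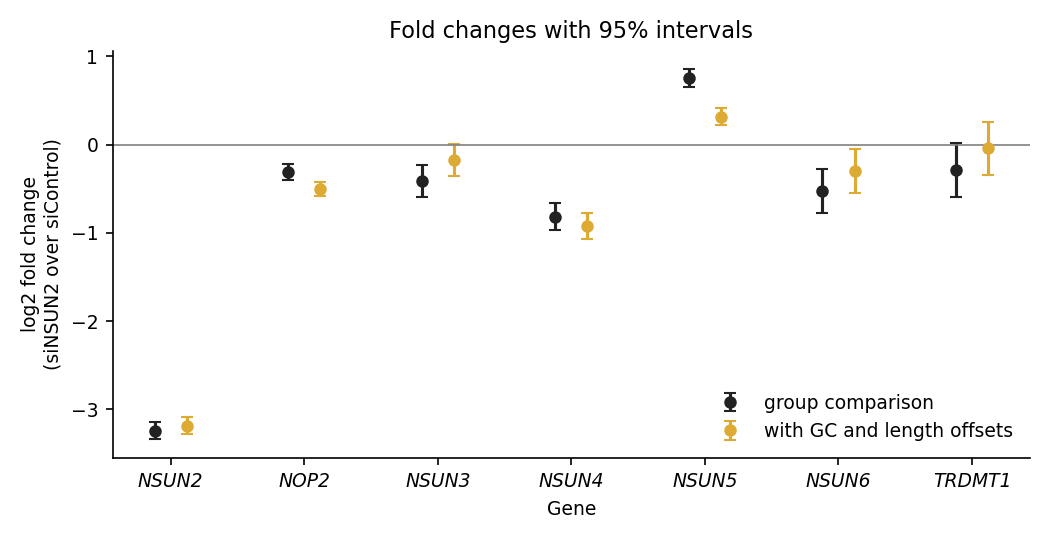
Log2 fold change of each gene (siNSUN2 over siControl) with its 95% interval, from 2 libraries per group, in black for the group comparison and in yellow after a correction of each library for trends on GC content and length. NSUN2 stands near −3.2 under both, NSUN5 stays above 0, NOP2 and NSUN4 move further down, and the intervals of NSUN3 and TRDMT1 reach past 0 under the yellow setting.

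Fold changes in these libraries ran with the GC content of the transcript, so each member is set beside genes like it. Medians of the log2 fold change ran from −0.24 for the decile of genes with the lowest GC content to 0.62 for the decile with the highest. NSUN5 (61.4% GC) lies in a decile where the median was 0.41 and 52.2% of the genes were called higher. NSUN3 (38.0% GC), NSUN6 (40.7% GC) and TRDMT1 (36.0% GC) lie in the 2 lowest deciles, with medians of −0.24, −0.21 and −0.24, and 46.2%, 44.6% and 46.2% of the genes there were called lower. NSUN4 (53.9% GC) and NOP2 (55.9% GC) fell although their deciles had medians of 0.11 and 0.21, with 18.0% and 12.8% called lower.

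With these trends taken off each library, log2 fold changes were −3.18 for NSUN2, −0.92 for NSUN4, −0.51 for NOP2 and 0.31 for NSUN5, all still called. NSUN6 moved to −0.30 (edgeR adjusted p = 0.0528) and, like NSUN3, lost its call. TRDMT1 moved to −0.04, with a 95% interval of −0.34 to 0.26. Thus 3 of the 5 falls, and the rise, were called with and without the correction; whether the GC trend arose in the cells or in the libraries was not tested.

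**Figure D3:**
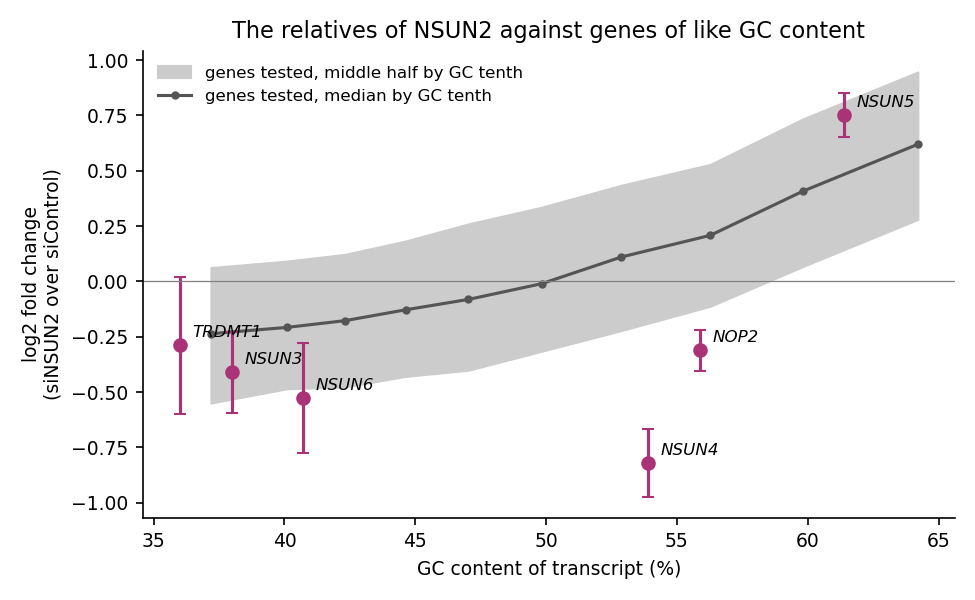
Log2 fold change (siNSUN2 over siControl) against GC content of the principal transcript (%), with 95% intervals for 6 members; the line joins the medians of all genes tested by decile of GC content and the grey band runs from their lower to their upper quartile, and NSUN2, at −3.24, lies below the axis range. NSUN5, NSUN3, NSUN6 and TRDMT1 lie within or near the grey band, whereas NSUN4 and NOP2 lie below it.

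Levels of different genes were compared per kilobase of annotated exon. In siControl cells NSUN2 stood first, at 51.3 ± 0.459 CPM per kilobase (mean ± SD, n = 2), followed by NOP2 at 41.8 ± 0.741, NSUN5 at 10.6 ± 0.235, NSUN4 at 3.80 ± 0.268, NSUN6 at 2.50 ± 0.106, NSUN3 at 2.23 ± 0.0685 and TRDMT1 at 0.447 ± 0.0092. No 2 neighbours in this order overlapped between libraries. In siNSUN2 cells NOP2 came first, at 33.7 ± 0.897 CPM per kilobase (n = 2), then NSUN5 at 17.8 ± 0.104, and NSUN2 after them at 5.42 ± 0.0664. NSUN6 and NSUN3, at 1.73 ± 0.143 and 1.67 ± 0.0136, overlapped there and cannot be ordered. The rank of NSUN2, 1 in siControl and 3 in siNSUN2, was the same with the length of the longest or of the principal coding transcript.

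The summed level of the 7 genes was 112 and 114 CPM per kilobase in siControl and 63.6 and 62.0 in siNSUN2, or 55.8% of siControl. Without NSUN2, the sum of the other 6 was 60.5 and 62.0 CPM per kilobase in siControl and 58.3 and 56.5 in siNSUN2, or 93.6%. Sums and shares were not taken with the GC and length offsets. Those offsets moved NSUN5 from 0.75 to 0.31 and NOP2 from −0.31 to −0.51 on the log2 scale, so the 93.6% holds only without them. The share of NSUN2 in the sum of 7 was 45.7% and 45.4% in siControl and 8.45% and 8.82% in siNSUN2. An exact two-sided permutation test gave p = 0.33, the smallest that 2 libraries against 2 allow. NSUN2 is the gene that the siRNA targets, so a fall of its share follows from the knockdown, and no conclusion is drawn from this test. The share of NSUN5 was 9.32% and 9.43% in siControl and 28.1% and 28.6% in siNSUN2, while that of NSUN4, which fell by nearly as much as the sum did, was 3.24% and 3.51% in siControl and 3.46% and 3.40% in siNSUN2. Of the 2 enzymes of 28S rRNA, NSUN5 stood at 25.2% and 25.4% of the NOP2 level per kilobase in siControl and at 52.1% and 53.6% in siNSUN2.

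**Figure D4:**
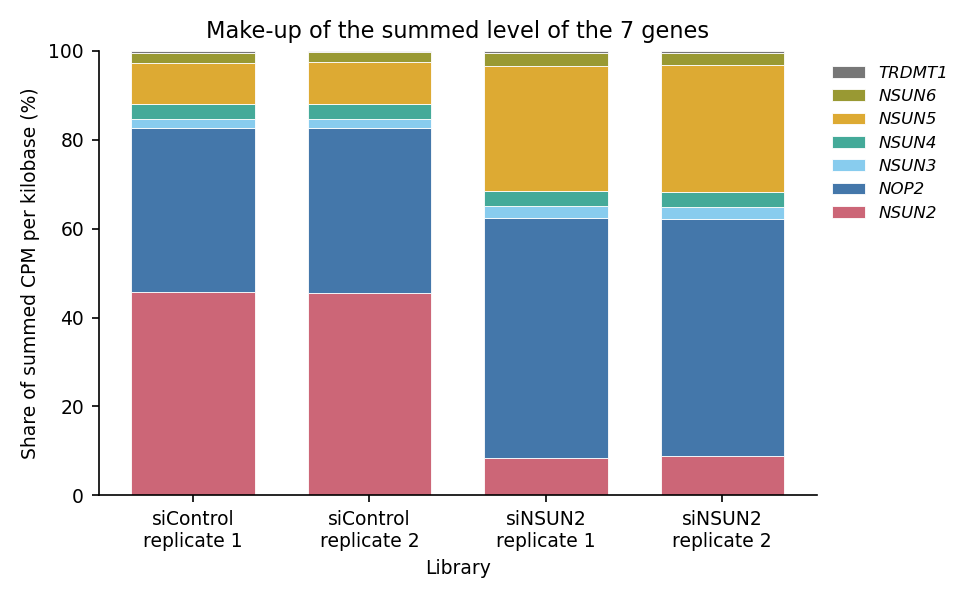
Share of each gene (%) in the summed CPM per kilobase of the 7 genes, 1 stacked bar per library. The NSUN2 part shrinks from about 45.6% in both siControl bars to about 8.64% in both siNSUN2 bars, and the NOP2 and NSUN5 parts grow most. Shares are relative to the sum, and the level of NOP2 itself fell, from 41.8 to 33.7 CPM per kilobase.

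Promoter sequences were compared because some members moved together. The RefSeq table (GRCh38.p14, a later build than the hg19 of the counts) holds promoters for 6 of the 7 members, each of 300 bases that run past the annotated start. Those of NSUN5, which rose, and NSUN3, which fell, both hold the ETS-type motif CCGGAAGT at 2 places (either strand), at bases −63 and −30 from the start of NSUN5 and −156 and −23 from that of NSUN3, and 1 of 2 promoters of NSUN6 holds it once. Of all 35097 promoters in the table, of genes expressed here or not, 4.1% hold it at 1 place or more. The share that hold it at 2 places was not counted. NOP2 has the E-box CACGTG, the motif of MYC and related factors, from base 36 after the start, as do 7.3% of promoters. The promoters of NSUN4 and TRDMT1 hold neither motif. The SP1 motif GGGCGG was also searched on both strands and is held by 44.9% of promoters. The last motif searched on both strands, the TATA box TATAAA, is held by 11.5%. NSUN5, NSUN4 and the second promoter of NSUN6 hold GGGCGG, and none of the promoters of these 6 members holds TATAAA. The promoters of NSUN5, NSUN3 and NOP2 are printed 5′ to 3′ with CCGGAAGT or CACGTG in capitals on either strand. A match is not a bound site, and whether any of these motifs has a part in the changes was not tested.
NSUN5, chr7:73308777-73309076, minus strand: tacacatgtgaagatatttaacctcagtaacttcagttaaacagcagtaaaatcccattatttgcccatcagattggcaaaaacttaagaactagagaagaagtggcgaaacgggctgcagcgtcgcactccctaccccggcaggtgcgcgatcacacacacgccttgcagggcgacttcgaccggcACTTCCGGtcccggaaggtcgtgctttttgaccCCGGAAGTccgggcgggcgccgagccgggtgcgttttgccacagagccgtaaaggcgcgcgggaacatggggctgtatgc
NSUN3, chr3:94062811-94063110, plus strand: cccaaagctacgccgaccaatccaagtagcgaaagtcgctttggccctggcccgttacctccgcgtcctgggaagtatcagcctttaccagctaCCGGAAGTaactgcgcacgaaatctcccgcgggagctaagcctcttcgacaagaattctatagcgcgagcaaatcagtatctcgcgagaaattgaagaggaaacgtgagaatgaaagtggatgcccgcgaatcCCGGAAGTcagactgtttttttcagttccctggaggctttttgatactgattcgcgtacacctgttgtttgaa
NOP2, chr12:6568242-6568541, minus strand: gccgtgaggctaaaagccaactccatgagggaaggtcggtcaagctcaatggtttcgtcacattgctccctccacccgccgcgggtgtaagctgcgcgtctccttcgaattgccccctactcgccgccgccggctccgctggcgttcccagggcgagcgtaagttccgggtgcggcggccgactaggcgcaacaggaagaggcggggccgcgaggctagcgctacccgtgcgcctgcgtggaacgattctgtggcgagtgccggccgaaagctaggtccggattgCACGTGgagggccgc

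Genes that work with these enzymes were taken from lists. Of all genes tested 52.6% were called, and of coding genes tested 33.6% were called higher and 30.7% lower. Among 8 partners, 3 genes rose, 1 gene fell and 4 were not called. After correction for GC and length 6 were called, in a fit that called 3736 higher and 3941 lower of 16286 genes. The median change of the 8 partners was 0.10 on the log2 scale, beside 0.03 for all genes tested without the correction. After the correction it was −0.03, in a fit that moved all genes by a median of 0.05. Corrected medians of the other lists come from that same fit. RNH1, the ribonuclease inhibitor that holds angiogenin in check, stood at 84.2 ± 2.07 CPM in siControl and rose to 177 ± 4.01 CPM in siNSUN2 (n = 2 each; log2 fold change 1.07), and ANG, the angiogenin gene, whose product cuts tRNAs that lack m5C, from 0.717 ± 0.0493 to 1.58 ± 0.452 CPM (1.14). AURKB, a mitotic kinase that phosphorylates NSUN2, rose by 0.22, and QTRT2, a subunit of the enzyme that puts queuine into tRNA, fell by 0.44 on the log2 scale. The partners of the mitochondrial members were not called: MTERF4 had a log2 fold change of −0.12 (edgeR adjusted p = 0.148) and ALKBH1 of 0.05 (edgeR adjusted p = 0.596).

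Of 5 genes for supply of the methyl donor S-adenosylmethionine, 2 were lower and 3 not called. Called lower were 25.5% of all genes tested and 30.7% of coding genes tested. The median of the 5 was −0.16, and −0.08 after correction for GC and length. MAT2A, the catalytic subunit of methionine adenosyltransferase, was at 368 ± 14.0 CPM in siControl and fell to 291 ± 10.2 CPM (n = 2 each), a log2 fold change of −0.34. AHCYL1, a relative of the hydrolase that clears S-adenosylhomocysteine, fell by 0.16 on the log2 scale. The count called was 1 in place of 2 without a low-count filter, where 4617 genes were called higher and 3933 lower of 31369 tested. It also moved with some single libraries left out.

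Of 8 readers and oxidases of m5C, 3 were higher, 2 lower and 3 not called, with a median near 0, beside 27.1% higher and 25.5% lower of all genes. Among coding genes tested, 33.6% were higher and 30.7% lower. With limma-voom all 8 were called, in a fit that called 4961 higher and 4538 lower of 16889 genes. TET3 had the largest change (log2 fold change 1.25), with TET2 at 0.30 and YBX1 at −0.25. Of the 3 DNA methyltransferase genes tested, DNMT3B was at 17.6 ± 0.610 CPM in siControl and rose to 41.7 ± 0.381 CPM (n = 2 each; log2 fold change 1.24) and DNMT3A from 8.54 ± 0.143 to 13.3 ± 1.28 CPM (0.64), whereas DNMT1, at −0.08, did not pass. After correction for GC and length, 3736 of 16286 genes were called higher and 3941 lower. All 3 of these methyltransferase genes were called there, with a median of 0.44. TRDMT1, related to them by structure, had a log2 fold change of −0.29 and was not called, and its difference from them was not tested.

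Substrates and other enzymes of the same RNAs gave a further comparison. Of 12 measured genes listed for other rRNA methyltransferases, 5 were lower and 7 not called (median −0.16). Called lower were 25.5% of all genes tested and 30.7% of coding genes tested. The 12 include TRMT112, which is also in the list of partners. DIMT1, which dimethylates adenines of 18S rRNA, went down to 65.5 ± 3.04 CPM, from 108 ± 1.10 CPM in siControl (n = 2 each), a log2 fold change of −0.72. METTL5, another adenine methyltransferase of 18S rRNA, fell by 0.57 on the log2 scale, and FBL, the methyltransferase of box C/D particles, fell by 0.32. In a fit with the replicate number as a block, 8 of these 12 were called, beside 5027 higher and 4788 lower of 16889 genes. MT-RNR1, the 12S rRNA that NSUN4 methylates, stood at 832 ± 13.4 CPM in siControl and 672 ± 7.10 CPM in siNSUN2, a log2 difference of −0.31, and MT-RNR2, the 16S rRNA, at 5014 ± 36.0 and 4574 ± 106 CPM, a log2 difference of −0.13. Of the 9 noncoding substrates listed, 7 were in the table and 3 were tested, with 2 lower. After correction for GC and length, the median of the 3 moved from −0.13 to 0.08. Of the 3, 1 was called then, beside 3736 higher and 3941 lower of 16286 genes. Poly(A) selection leaves most rRNA and tRNA behind, so the levels of these RNAs are not total levels. The vault RNA gene VTRNA1-1, a substrate of NSUN2, had 2 and 7 counts in siControl and 0 in both siNSUN2 libraries, too few to test.

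The genes whose pattern over the 4 libraries was most like that of NSUN2, by Euclidean distance between centred log2 CPM profiles among 10731 genes, were PTER (distance 0.324), the pseudogene ZNF204P (0.456), ZNF420 (0.571) and 2 genes without a symbol, ENSG00000264577 (0.622) and ENSG00000269968 (0.642). PTER was at 38.3 and 35.9 CPM in siControl and at 4.29 and 5.14 CPM in siNSUN2, 12.7% of the siControl mean.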

How the data were processed

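The authors deposited whole-number read counts per gene for 4 libraries of poly(A) RNA, made with a strand-specific kit and paired reads, per the labels' protocols. Reads were aligned with HISAT2 to hg19 and counted with HTSeq, per the submitters' processing notes; versions, annotation and strand setting are not stated there. Counts were tested with edgeR 4.0.16 (R 4.3.3) by its quasi-likelihood test with robust fitting, TMM scaling, filterByExpr and group as the only term, two-sided, with Benjamini-Hochberg adjustment over the 16889 genes tested and a threshold of 0.05. Standard errors come from the F statistic. Ensembl identifiers were matched to symbols for 51537 of the 62893 genes; lengths, GC content and transcript words come from GENCODE, promoters from RefSeq. Intervals and counting errors cover the spread between these libraries or counting only. Replicates differed by more than counting noise, at a chi-square of 18.8 per degree of freedom in siControl and 12.4 in siNSUN2, so none was merged.

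Named genes were all members, NSUN7 and the NSUN5 copies, from each list up to 3 called genes with the smallest p and any called gene with a log2 change of at least 1 in size, up to 4 called neighbours, and the 5 genes most like NSUN2. MTERF4, ALKBH1, DNMT1, DHFR2, AL450384.2, VTRNA1-1 and SRD5A1 were named beyond this rule, after their values were seen, for their tie to a member. Members and lists were chosen with earlier results of these data known. The fitting step was tested on simulated data. Alternatives covered scaling, filters, DESeq2 1.42.0, limma 3.58.1, a replicate block, GC and length offsets, thinning and single libraries left out. A planned comparison of protein sequences was not run, and the values of 2 neighbours and 1 marker are not reported here.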

Additional observations from a re-analysis of the deposited data

How the results depend on the processing

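No log2 fold change of a member changed sign in any alternative run. Over 16 alternatives NSUN2 stayed between −3.32 and −3.18, and between −3.32 and −3.23 with single libraries left out. The ranges were −0.51 to −0.27 for NOP2, −0.95 to −0.76 for NSUN4 and 0.31 to 0.77 for NSUN5, all called throughout, apart from NOP2 in the test against a fold of 1.2. With GC and length offsets the members called lower went from 5 to 3, since NSUN3 and NSUN6 lost their calls. Of all 16286 genes in that fit 3941 were called lower. The cause of the lost calls was not tested. TRDMT1 was called in none, with adjusted p from 0.0739 to 0.838.

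With the replicate number as a block, 1 member was called higher and 5 lower, as without it, and NSUN2 was at −3.24, while the genes called were 5027 higher and 4788 lower. The numbers share no stated origin, and deviations of same-numbered libraries correlated at 0.0645 across genes, so the block is not read as a pairing. The block with the offsets called 4 members lower: NSUN6 passed at −0.30 (edgeR adjusted p = 0.0384) and NSUN3 did not. That fit called 4232 of 16286 genes lower.

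Against a fold of 1.2, 2913 of all genes were higher and 2529 lower. Without siControl replicate 1 the median of all genes moved by −0.07, and 44.2% of calls were higher. The NSUN2 share in siControl was 45.3% with the longest transcript, 49.4% without length and 43.8% with NSUN7 and the NSUN5 copies added, and in siNSUN2 10.4% without length and 7.85% with those genes added. TRDMT1 and NSUN6 had the fewest counts, 130 and 195 in their smallest library. With all libraries thinned to the smallest total, NSUN6 was still called (edgeR adjusted p = 0.00633) and TRDMT1 was not (0.0862).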

Other observations

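The genes that flank the members on the chromosome were also measured. Of 14 nearest protein-coding neighbours, 11 were tested, and 5 of them were higher, 3 lower and 3 not called, with a median log2 fold change of 0.31. Of all genes tested 27.1% were higher and 25.5% lower, and the median was 0.03. Among coding genes tested, 33.6% were higher and 30.7% lower. SRD5A1, a steroid 5-alpha-reductase gene that starts head to head with NSUN2, was at 18.2 and 18.1 CPM in siControl and at 22.2 and 22.7 CPM in siNSUN2 (log2 fold change 0.31). Its level was thus a little higher in the libraries in which NSUN2 was at 10.6% of control.

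CHD4, the helicase of the NuRD chromatin complex and the neighbour of NOP2 on the same strand, was at 351 and 352 CPM in siControl and at 236 and 235 CPM in siNSUN2 (log2 fold change −0.58), a larger fall than that of NOP2 itself. VIM, the gene of the intermediate filament vimentin and the neighbour of TRDMT1 in the head to head orientation, was higher, at 1020 and 1051 CPM in siControl and 1768 and 1755 CPM in siNSUN2 (log2 fold change 0.77), while TRDMT1 was not called.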
